A study of Homo sapiens with 6 samples.

Results

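The genes described here encode the factors that start and extend protein chains on the cytosolic ribosome. They were taken by symbol from a table of read counts for A549 cells. Of 19876 symbols in the table, 57 begin with EIF and a digit. From these, 4 kinases of eIF2 (EIF2AK1 to EIF2AK4) and 4 antisense or divergent transcripts were left out. The remaining 49 were joined by 5 elongation factor genes (EEF1A1, EEF1B2, EEF1D, EEF1G and EEF2) and by PABPC1, which gives 55 genes on 19 chromosomes. The symbols alone chose them, and no measured value entered that rule. EIF4A1, EIF1AY and EIF4E1B were not analysed here.

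A549 is an established human cell line that came from a lung adenocarcinoma. The labels give 3 libraries from cells cultured with phosphate-buffered saline (PBS), the negative control, and 3 from cells cultured with rhTR11B. TR11B stands for TNFRSF11B, or osteoprotegerin, a soluble decoy that captures ligands of the tumour necrosis factor family, and the labels do not spell out rhTR11B, its dose or the time of treatment. Both groups were the same line, labelled WT, kept in DMEM with fetal bovine serum and penicillin/streptomycin, so all results come from 1 line. The libraries are called biological replicates, but the labels do not say that they were separate cultures. The p-values therefore weigh differences against a spread among libraries that could be technical.

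The 6 libraries held 36315751 to 38148838 counts. The keratin genes KRT8, KRT18 and KRT7 of simple epithelium averaged 460.4, 454 and 138 FPKM over the 6 libraries, while the epithelial adhesion genes EPCAM and CDH1 had at most 10 and 1 counts in any library. Of the markers of other cell types, DCN, PDGFRA and PDGFRB (fibroblasts) and PECAM1 and VWF (endothelium) had at most 2 counts, CDH5, CD14 and ITGAM at most 26, LUM at most 27, and COL1A1 99 to 203. Mitochondrially encoded transcripts made up 7.71%, 6.63% and 7.31% of counts with PBS and 8.75%, 7.88% and 10.4% with rhTR11B. The first principal component (36.4% of the variance) set rhTR11B replicate 3 apart, at 25.7, from its fellow rhTR11B libraries (2.66 and 8.63) and from PBS (-5.96, -18.4 and -12.7). In bulk RNA, fewer cells of a type and less RNA per cell cannot be told apart.

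Translation begins when eIF2 brings the initiator tRNA to the small ribosomal subunit, which also carries eIF1, eIF1A, eIF3 and eIF5. The cap-binding factor eIF4E, the scaffold eIF4G and the helicase eIF4A load this assembly onto a messenger RNA, and poly(A)-binding protein on the tail holds eIF4G from the other end. After eIF5B joins the large subunit, eEF1A delivers aminoacyl-tRNA to the ribosome and eEF2 moves the ribosome along the message. Many messages for elongation factors and ribosomal proteins begin with a C followed by a run of pyrimidines, the 5′ terminal oligopyrimidine (TOP) motif, through which the kinase mTOR and the RNA-binding protein LARP1 control their translation and stability.

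With rhTR11B, most translation factor transcripts had slightly lower levels than with PBS, and no single factor passed the test. Of the 55 genes, 53 had counts high enough to test. At an adjusted p under 0.05 (edgeR's quasi-likelihood test on counts, Benjamini-Hochberg adjustment over 13567 genes) 0 factors were called, where 3.6% of all tested genes were (0.678% lower and 2.92% higher). The log2 fold change, rhTR11B minus PBS, was below 0 for 48 of the 53 factors, against 50.0% of all tested genes. It was above 0 for EIF1AD, EIF2S3, EIF3CL, EIF4G3 and EIF5. At an unadjusted p under 0.05, 29 factors were lower, where 10.3% of all genes were, and 0 were higher, where 13.8% of all genes were. For 28 factors all rhTR11B libraries lay below all PBS libraries, a pattern seen in 14.0% of all tested genes, and for 0 did they lie wholly above, against 15.1%. The median log2 fold change was -0.15 over the factors and 0.00 over all tested genes.

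Abundant genes as a whole leaned the same way. Among 4616 genes with a mean of at least 50 CPM (counts scaled to the TMM-adjusted library size), 58.9% had a log2 fold change below 0, 18.1% were lower at an unadjusted p under 0.05, and 22.6% had rhTR11B libraries wholly below PBS. Of the 38 factors at that level, 35, 25 and 21 did so. DESeq2's Wald test called 10 factors lower, where it called 1.75% of all genes lower, and limma-voom called 0. The 10 were EEF2, EIF1AX, EIF2S2, EIF3B, EIF3F, EIF3I, EIF3M, EIF4EBP1, EIF5A and EIF5AL1, with adjusted p from 0.0081 for EIF3M to 0.0452 for EEF2. Under other settings of edgeR, the factors called lower numbered 13 with no low-count filter (2.43% of all genes), 6 with offsets for gene length (1.17%), 5 with a replicate block (1.86%) and 2 with library size alone (0.796%).

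The difference was not of 1 size in the rhTR11B libraries. Relative to each gene's PBS mean, the median over the factors was -0.08, -0.12 and -0.24 on the log2 scale in rhTR11B replicates 1, 2 and 3, and -0.04, 0.02 and 0.03 in PBS replicates 1, 2 and 3. The third rhTR11B library was thus the lowest and the first the nearest to the controls. Summed over the factors, the levels were 28105, 28908 and 29425 CPM with PBS and 27358, 26609 and 23485 CPM with rhTR11B. The groups did not overlap in this sum, and the mean was 10.4% below that of PBS (28813 ± 665 and 25817 ± 2054 CPM, SD, n = 3). EEF1A1 alone made up 12540 CPM of the PBS mean. Summed over the 49 EIF genes only, the mean was 8.9% below that of PBS. The factors took 2.83%, 2.93% and 2.94% of the counts with PBS and 2.71%, 2.68% and 2.30% with rhTR11B. Ribosomal protein genes, 84 by symbol, took 5.05%, 5.16% and 5.21% with PBS and 4.62%, 4.62% and 3.90% with rhTR11B. The mitochondrial share, given above, was highest in the same library in which both of these shares were lowest, and its part in the result was not tested. Without rhTR11B replicate 3 the median over the factors was -0.10, and EIF3C (-0.69, adjusted p = 0.0003), EIF3M (-0.18, adjusted p = 0.0368) and EIF5A (-0.17, adjusted p = 0.0410) passed edgeR's test, where 0.626% of all genes were called lower. Without rhTR11B replicate 1 the median was -0.18, and 9 factors passed, where 3.1% of all genes were called lower.

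**Figure D1:**
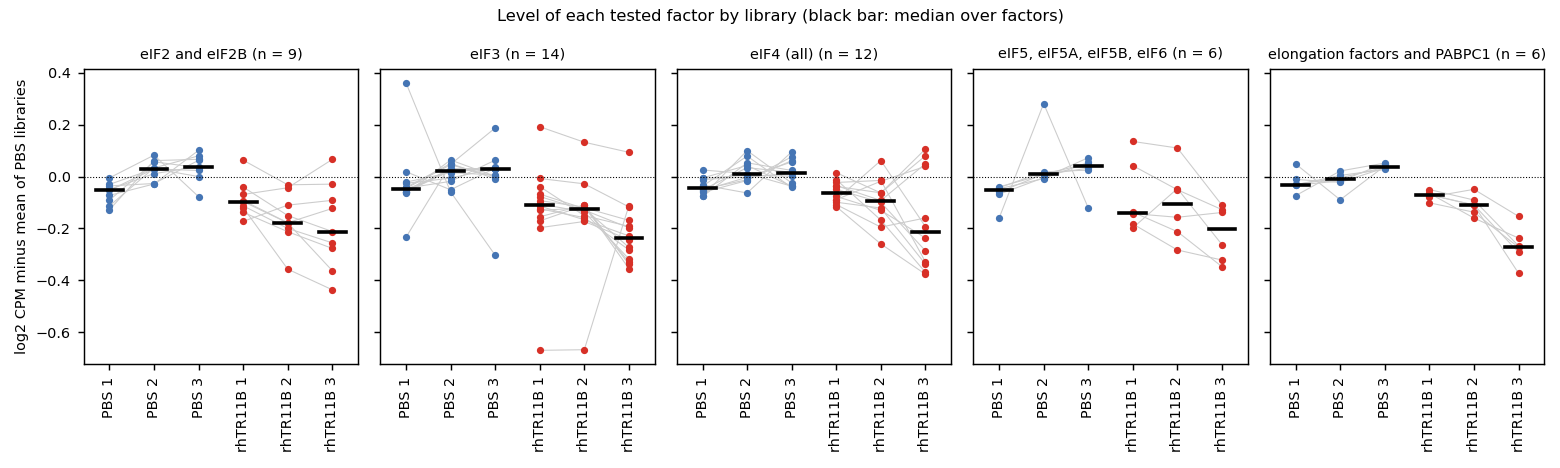
Level of tested factors in each library, as log2 CPM minus the mean of the PBS libraries. Panels are by factor group, with 1 point per gene and a black bar at the median of the panel. The eIF1 and eIF1A genes, EIF2A and EIF2D are not drawn. The medians of the rhTR11B libraries lie mostly below 0 and lowest in rhTR11B replicate 3. Over all tested factors, drawn or not, the median there was -0.24.

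Levels between genes were compared per length, as FPKM (fragments scaled to gene length and library total). The length used was 3612 bases for EIF5A, against 1511 in its longest coding transcript, and 3512 for EEF1A1, against 4441. The order of genes by FPKM therefore depends on the lengths used. EEF1A1, the carrier of aminoacyl-tRNA, was the most abundant factor and ranked 10 in the whole table, with 3590.3 ± 69.1 FPKM with PBS. EEF2, the translocase, had 1138 FPKM with PBS (rank 36 over all libraries), and EEF1G, a structural subunit of the exchange complex that recharges eEF1A, had 1081 (rank 40). PABPC1 followed at 407 (rank 105) and EEF1B2, an exchange subunit, at 371 (rank 119). The most abundant of the EIF genes were EIF5A at 284 (rank 157), EIF4B at 171, EIF3G at 167, EIF3K at 164, EIF4G2 at 161 and EIF1 at 160.5 FPKM, and neighbours in this order after EIF5A differ by less than the SD of the more variable gene. The cap-binding protein gene EIF4E had 13.9 FPKM with PBS, below its binding protein gene EIF4EBP1 at 55.2 and far below its scaffold partner EIF4G1 at 115. At the low end, the counts of EIF4E3 were 0, 0 and 0 in PBS replicates and 1, 1 and 0 in rhTR11B replicates, and those of EIF4EBP3 were 5, 6 and 8, then 11, 1 and 9. Both were too low to test.

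**Figure D2:**
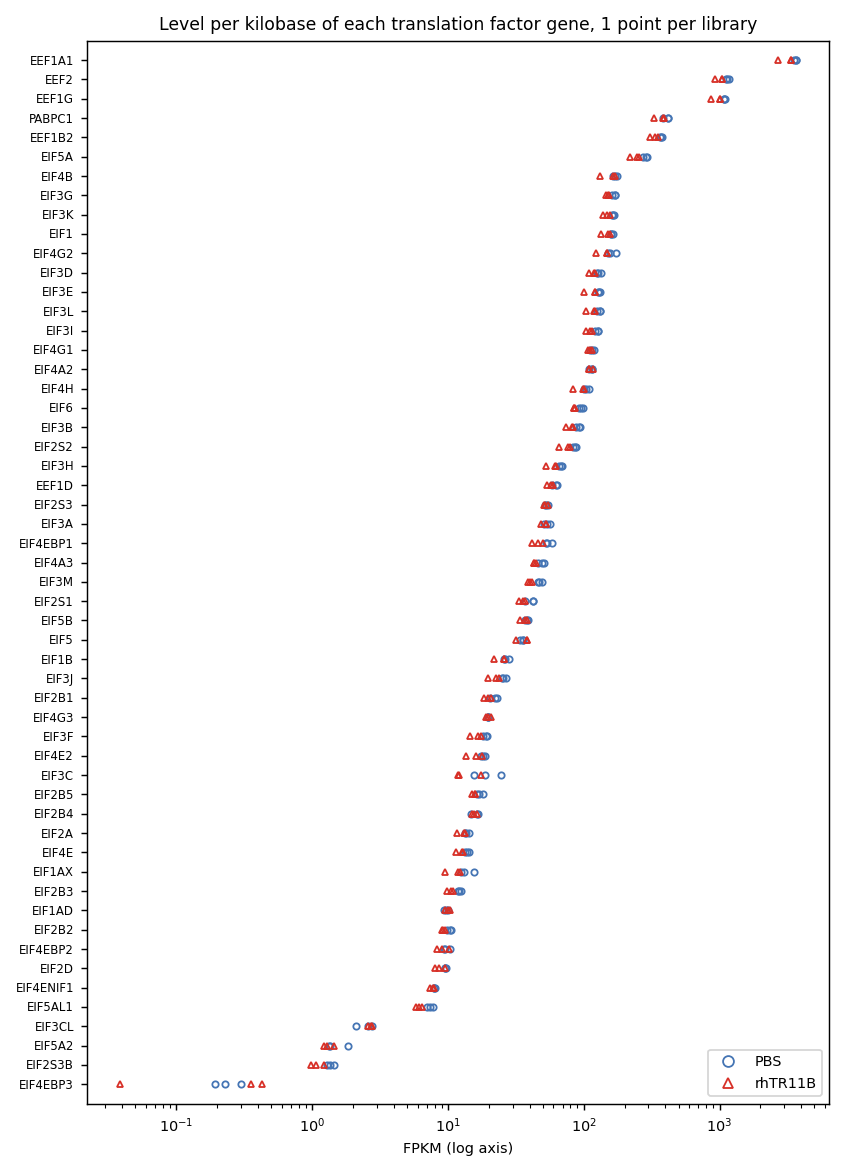
FPKM of each factor gene on a log axis, with 1 point per library, sorted by level. EEF1A1 stands at the top with a PBS mean of 3590.3 FPKM, EEF2 and EEF1G come next, and the groups lie close together beside the range of levels between genes. EIF4E3, at or near 0, is not drawn.

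Because several of these genes are known TOP messages, the letters at their annotated transcription starts are shown, taken from RefSeq on GRCh38.p14. Each line gives 30 bases of the gene's own strand, 15 before the annotated first base and 15 from it on. Capitals mark an unbroken run of C and T that begins with a C at the first base and holds at least 4 further pyrimidines. Only the sense strand at the annotated first base was read, with no other motif searched. A gene counts as having such a start if any of its annotated starts does, which for EEF1B2 is the second and not the first.
EEF1A1 (chr6:73521018-73521047, minus strand): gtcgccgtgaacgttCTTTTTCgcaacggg
EEF2 (chr19:3985449-3985478, minus strand): gttgacgtcagcgttCTCTTCCgccgtcgt
EEF1B2 (second of its 2 annotated starts, chr2:206159880-206159909, plus strand): ccggtctcttcgggtCCTTTTTCCTCTCTT
EIF4B (chr12:53006441-53006470, plus strand): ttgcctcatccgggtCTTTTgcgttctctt
EIF3F (chr11:7987322-7987351, plus strand): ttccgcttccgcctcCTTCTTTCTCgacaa
EIF3M (chr11:32583816-32583845, plus strand): gcgcggcccagttccCTTTTCCggtcggcg
EIF3K (chr19:38619173-38619202, plus strand): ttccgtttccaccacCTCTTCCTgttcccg
EIF3D (chr22:36529152-36529181, minus strand): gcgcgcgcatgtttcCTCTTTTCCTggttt
EIF2S3 (chrX:24054941-24054970, plus strand): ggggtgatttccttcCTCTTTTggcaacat
EIF4A2 (chr3:186783562-186783591, plus strand): gttgggcgccgctgtCTTTTCagtcgggcg
EIF2S1 (chr14:67360313-67360342, plus strand): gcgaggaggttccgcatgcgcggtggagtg
EIF4G1 (first annotated start, chr3:184314591-184314620, plus strand): tctgtgcggggagccggaaatggttgtgga
EIF5 (first annotated start, chr14:103334222-103334251, plus strand): gcggcggcgttgttcagtcagagcgagaac
EIF5A (first annotated start, chr17:7306984-7307013, plus strand): atgggtgggaacccgaccacactagcgcgc

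The first 10 of these have such a pyrimidine start and the last 4 do not. Of the 45 factors with a start window in the RefSeq table, 13 had at least 1, or 28.9%, against 5.14% of the 27305 genes in that table and 4.07% of its 35116 windows. That table also holds many genes not tested here. Of the tested genes with a window, 777 had such a start and 9942 did not. EIF2A, EIF2D and EIF2S3B complete the 13. The factors with and without these letters had similar medians, and no test was made between them. With them, 12 of 13 log2 fold changes were below 0, 8 genes had rhTR11B libraries wholly below PBS (14.0% of all tested genes did), and the median was -0.13. Without them, 27 of 30 tested factors were below 0, 14 were wholly below, and the median was -0.15. The genes shown also differ among themselves: EIF3M and EIF3F stood lower in every rhTR11B library, while EIF2S3 and EIF4A2, with the same kind of start, overlapped with PBS. Over all tested genes the medians were -0.03 for 777 genes with such a start, 56.8% of them below 0, and -0.00 for 9942 with a window and none, 50.6% of them below 0. By a list of 10 known TOP messages in place of the letters (the elongation factors, PABPC1, EIF3E, EIF3F, EIF3H and EIF4B), all 10 were below 0, 7 were wholly below, and the median was -0.16, beside -0.14 for the 43 other tested factors, 21 of which were wholly below. All 10 have at least 50 CPM, a level at which 22.6% of all genes were wholly below. By the letters, EEF1G of this list counts among the factors without such a start. EEF1D, PABPC1, EIF3E and EIF3H of the list had no start window. The rest of the list, EEF1A1, EEF1B2, EEF2, EIF3F and EIF4B, had such a start. So did EIF2A, EIF2D, EIF2S3, EIF2S3B, EIF3D, EIF3K, EIF3M and EIF4A2, which are not on the list. The median log2 fold changes were similar whether the factors were divided by the letters or by the list.

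**Figure D3:**
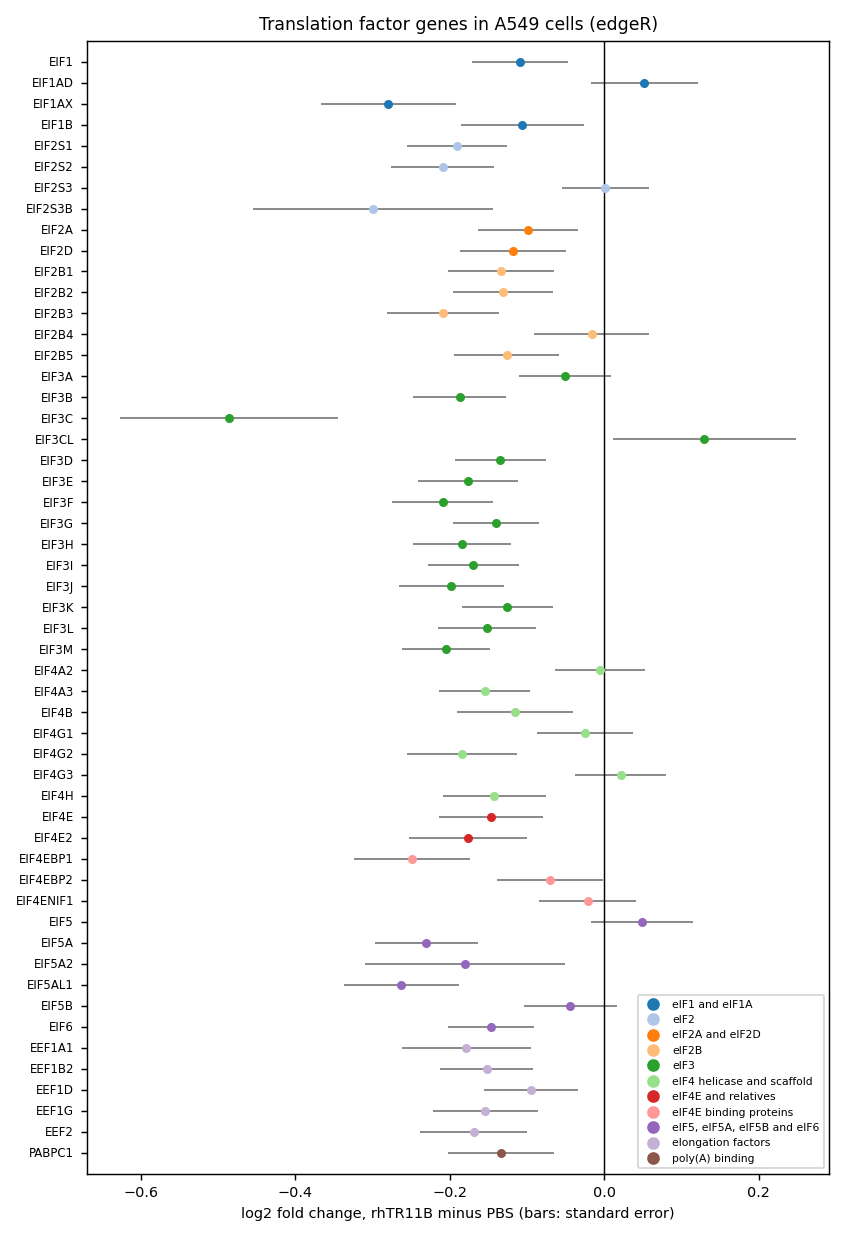
Log2 fold change of each tested factor, rhTR11B minus PBS, with bars for the standard error, sorted within factor groups. Of the 53 points, 48 lie to the left of 0, and all but EIF3C, at -0.49, lie between -0.30 and 0.13.

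The elongation factors had lower means with rhTR11B in all 5 cases, and none passed the test. EEF1A1 (chromosome 6, 73515750 to 73521032 on GRCh38.p14) had 12264, 12577 and 12779.7 CPM with PBS and 11943, 11616 and 9682 CPM with rhTR11B. Every rhTR11B library was below every PBS library, with replicate 3 set well apart. The log2 fold change was -0.18 (SE 0.08, adjusted p = 0.197), and without rhTR11B replicate 3 it was -0.09 (adjusted p = 0.285). EEF2 (chromosome 19, 3976056 to 3985463) had 3492, 3532 and 3699.8 CPM with PBS and 3332, 3249 and 2958 CPM with rhTR11B. Its groups did not overlap either, at a log2 fold change of -0.17 (SE 0.07, adjusted p = 0.144). EEF1G (1543, 1531 and 1591 CPM with PBS, 1482, 1441 and 1269.9 with rhTR11B) and EEF1B2 (319, 325 and 334 CPM, then 312, 292 and 277) had log2 fold changes of -0.15 each, with adjusted p = 0.175 and 0.132, and again no overlap. EEF1D, the other exchange subunit, overlapped: 438, 398 and 435 CPM with PBS and 400.5, 409 and 380.4 CPM with rhTR11B (log2 fold change -0.09, adjusted p = 0.354).

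Summed over these 5 genes, the levels were 18056, 18362 and 18840.4 CPM with PBS and 17468, 17006 and 14567 CPM with rhTR11B, so the mean was 11.3% lower (18419.6 ± 395 and 16347 ± 1559 CPM). EEF1A1 made up most of this sum. Proportions among the elongation factors were nearly the same in both groups. EEF1G over EEF1B2 was 2.92 ± 0.037 with PBS and 2.91 ± 0.106 with rhTR11B as a ratio of FPKM values. EEF1A1 over EEF2 was 3.158, 3.202 and 3.106 with PBS and 3.22, 3.21 and 2.94 with rhTR11B, with overlap. EEF1A2, the paralog of EEF1A1 best known from muscle and neurons and not among the 55 genes, had a log2 fold change of 0.14 (adjusted p = 0.170). It had 366, 358 and 389 CPM with PBS and 415, 433 and 382 CPM with rhTR11B. The ratio of EEF1A1 to EEF1A2 was 16.9, 17.7 and 16.6 with PBS and 14.5, 13.5 and 12.8 with rhTR11B, without overlap. The longest coding transcripts of this pair are 78.4% identical over 1387 bases.

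PABPC1, the main cytosolic poly(A)-binding protein, had 1106, 1181 and 1207 CPM with PBS and 1124, 1093 and 967 CPM with rhTR11B. Replicate 1 of the rhTR11B libraries lay above replicate 1 of the PBS libraries, so the groups overlapped. The log2 fold change was -0.13 (SE 0.07, adjusted p = 0.240), with a 95% interval from -0.28 to 0.01, and it was -0.07 without rhTR11B replicate 3.

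The eIF3 complex is the largest initiation factor, a multi-subunit scaffold on the small ribosomal subunit. Of its 14 genes in the table, 13 had a log2 fold change below 0, 12 were lower at an unadjusted p under 0.05, and 11 had rhTR11B libraries wholly below PBS, with a median of -0.17. Of all tested genes 10.3% and 14.0% met these last criteria, and of those with at least 50 CPM 18.1% and 22.6% did. None of the 14 passed the adjusted threshold. Summed levels were 3018, 3136 and 3131 CPM with PBS and 2872, 2816 and 2616 CPM with rhTR11B, all rhTR11B libraries below all PBS libraries and 10.6% lower on average (3095 ± 66.7 and 2768 ± 134 CPM).

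EIF3M (chromosome 11, 32583831 to 32606264), a subunit of the outer PCI/MPN core, came nearest to the threshold of all 55 genes. It had 234, 249 and 239.5 CPM with PBS and 210.1, 214 and 204 CPM with rhTR11B. The rhTR11B values were close to one another, replicate 3 included, and all below PBS. The log2 fold change was -0.20 (SE 0.06, 95% interval -0.32 to -0.09, adjusted p = 0.0516). EIF3F (125, 133 and 133 CPM with PBS, 116, 121 and 102 with rhTR11B; chromosome 11, 7987337 to 8001852), another subunit of the core, had -0.21 (adjusted p = 0.0716). EIF3B, the scaffold that binds EIF3G and EIF3I, had 312, 332 and 332 CPM with PBS and 299, 292 and 267 CPM with rhTR11B, at -0.19 (adjusted p = 0.0767). The other subunits without overlap were EIF3D (which can itself bind caps), EIF3E, EIF3G, EIF3H, EIF3I, EIF3J, EIF3K and EIF3L. Their log2 fold changes ran from -0.20 for EIF3J to -0.13 for EIF3D and EIF3K, with adjusted p from 0.0895 to 0.201.

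The most abundant subunits per length were EIF3G (167 FPKM with PBS, 150 with rhTR11B), which binds RNA, and EIF3K (164 and 148). EIF3G had 186, 177 and 187 CPM with PBS and 167, 169 and 163 CPM with rhTR11B, at a log2 fold change of -0.14 (SE 0.06, adjusted p = 0.135). EIF3K had 123, 125 and 129 CPM with PBS and 122, 113 and 110.0 CPM with rhTR11B, at -0.13 (SE 0.06, adjusted p = 0.201). Both were lower in every rhTR11B library, EIF3K by little in replicate 1. EIF3E, a subunit also known as INT6 from a site of viral integration in mouse mammary tumours, had 308, 316 and 314 CPM with PBS and 293, 288 and 248 CPM with rhTR11B (-0.18, adjusted p = 0.108), with replicate 3 the lowest. EIF3A, the largest subunit and the base on which the core assembles, stood apart from them. It had 341, 373 and 357 CPM with PBS and 355, 349.6 and 329 CPM with rhTR11B, with overlapping groups. Its log2 fold change was -0.05 (95% interval -0.18 to 0.07, adjusted p = 0.644). Whether it differed from the other subunits was not tested, and the intervals overlap.

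EIF3C had the most negative log2 fold change of the 55 genes, but its value is uncertain. It had 88.8, 66.3 and 56.0 CPM with PBS and 43.4, 43.5 and 63.9 CPM with rhTR11B, so the groups overlapped and the PBS libraries alone spanned more than 30 CPM. The log2 fold change was -0.49 (SE 0.14, adjusted p = 0.0582), moving to -0.28 when PBS replicate 1 was left out and to -0.69 when rhTR11B replicate 3 was. EIF3CL, a copy of EIF3C that lies near it on chromosome 16, had 6.82, 8.29 and 9.13 CPM with PBS and 9.17, 8.79 and 8.56 CPM with rhTR11B. The longest coding transcripts of the 2 genes are 99.9% identical over 3085 bases, so how reads were shared between them depends on the counting. The ratio of EIF3C to EIF3CL was 11.8, 7.28 and 5.57 with PBS and 4.31, 4.50 and 6.79 with rhTR11B. Their summed level was 95.6, 74.6 and 65.1 CPM with PBS and 52.5, 52.2 and 72.5 CPM with rhTR11B, which still overlapped. Without both genes the eIF3 counts were 12 of 12 below 0 and 11 of 12 wholly below, with the same median of -0.17.

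**Figure D4:**
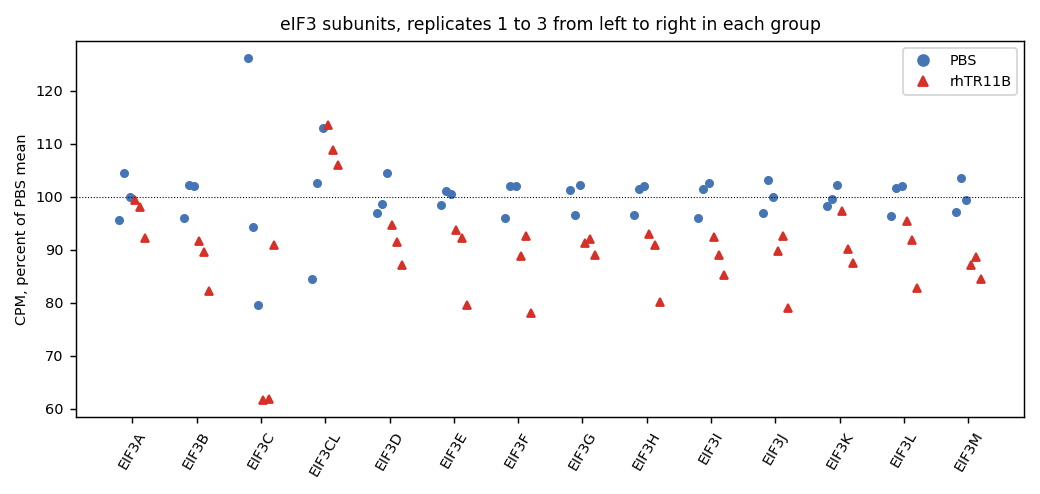
CPM of each eIF3 gene in each library as a percent of its PBS mean, with PBS and rhTR11B replicates 1 to 3 from left to right. All subunits but EIF3A, EIF3C and EIF3CL have their 3 rhTR11B points below their 3 PBS points, and EIF3C has the widest spread in both groups.

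The heterotrimer eIF2 carries the initiator tRNA, and its alpha subunit is the target of the stress kinases. The gene of this subunit, EIF2S1 (chromosome 14, 67360328 to 67386516), had 154, 175 and 176 CPM with PBS and 155, 146 and 141 CPM with rhTR11B. PBS replicate 1 lay within the rhTR11B values, and the log2 fold change was -0.19 (SE 0.06, adjusted p = 0.0864). The beta subunit gene EIF2S2 (chromosome 20, 34088309 to 34112243) had 245, 259.9 and 259 CPM with PBS and 238, 225 and 198 CPM with rhTR11B. These groups did not overlap, with a log2 fold change of -0.21 (SE 0.07, adjusted p = 0.0745). The gamma subunit gene EIF2S3 (chromosome X, 24054956 to 24078810) had 179, 186 and 182 CPM with PBS and 191, 178 and 179 CPM with rhTR11B. Its values were interleaved, and the log2 fold change was 0.00 with a 95% interval from -0.12 to 0.12 (adjusted p = 0.992).

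The proportions within eIF2 differed accordingly. The FPKM ratio of EIF2S3 to EIF2S2 was 0.626, 0.616 and 0.606 with PBS and 0.688, 0.682 and 0.776 with rhTR11B, without overlap (0.616 ± 0.010 and 0.715 ± 0.053, n = 3). The ratio of EIF2S3 to EIF2S1 was 1.40, 1.28 and 1.25 with PBS and 1.47, 1.47 and 1.53 with rhTR11B, also without overlap. That of EIF2S2 to EIF2S1 overlapped, at 2.23, 2.07 and 2.06 with PBS and 2.14, 2.15 and 1.97 with rhTR11B. These ratios are descriptions, chosen among 18 pairs of genes, and carry no test. EIF2S3B, a copy of EIF2S3 that is 97.4% identical to it over 1561 bases, had 4.28, 4.55 and 4.07 CPM with PBS and 3.95, 3.35 and 3.17 CPM with rhTR11B (log2 fold change -0.30, adjusted p = 0.245). Its reads may be shared with EIF2S3.

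**Figure D5:**
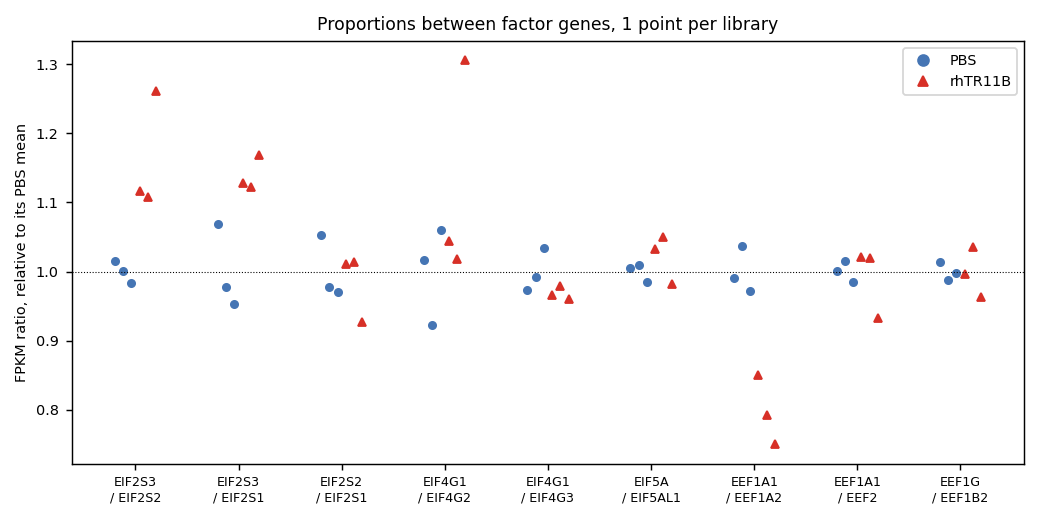
FPKM ratios between pairs of factors in each library, each divided by its mean over the PBS libraries. EIF2S3 over EIF2S2 and EEF1A1 over EEF1A2 separate the groups in opposite directions, with rhTR11B means of 0.715 and 13.6 against PBS means of 0.616 and 17.1.

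eIF2B is the exchange factor that recharges eIF2 with GTP and is held back by phosphorylated eIF2. All 5 of its subunit genes had log2 fold changes below 0, with a median of -0.13, and none passed. EIF2B3 (gamma) had 29.1, 29.3 and 31.2 CPM with PBS and 27.1, 25.7 and 24.6 CPM with rhTR11B, without overlap, at -0.21 (SE 0.07, adjusted p = 0.0926). EIF2B2 (beta) had 42.5, 44.3 and 45.2 CPM with PBS and 41.2, 38.9 and 40.4 CPM with rhTR11B, at -0.13 (adjusted p = 0.220), and EIF2B5, the catalytic epsilon subunit, 43.4, 44.7 and 49.0 and then 40.5, 42.3 and 42.8 CPM, at -0.13 (adjusted p = 0.260). Both had groups that did not overlap. EIF2B1 (alpha) had 48.8, 54.1 and 53.3 CPM with PBS and 50.6, 46.9 and 44.9 CPM with rhTR11B (-0.13, SE 0.07, adjusted p = 0.237), and EIF2B4 (delta) had -0.02 (adjusted p = 0.918). These 2 had overlapping groups.

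EIF2A and EIF2D are single-chain factors outside eIF2 that can deliver tRNA. EIF2A had 65.3, 67.9 and 64.0 CPM with PBS and 64.7, 62.6 and 56.7 CPM with rhTR11B (-0.10, adjusted p = 0.361). EIF2D had 50.1, 48.5 and 49.8 CPM with PBS and 49.6, 44.3 and 42.8 CPM with rhTR11B (-0.12, adjusted p = 0.300). In both genes rhTR11B replicate 1 lay within the PBS values.

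The eIF4 genes serve the cap and the scaffold. EIF4G1, the main scaffold, had 683, 701 and 737 CPM with PBS and 689.7, 663 and 731 CPM with rhTR11B. The values were interleaved, with a log2 fold change of -0.03 (95% interval -0.16 to 0.10, adjusted p = 0.840). Its paralog EIF4G3 had 169, 169.7 and 172 CPM with PBS and 172, 163 and 183 CPM with rhTR11B, again interleaved (0.02, 95% interval -0.10 to 0.14, adjusted p = 0.864). EIF4G2 (DAP5), a scaffold that lacks the eIF4E site, had 643, 726 and 666 CPM with PBS and 633, 623 and 536 CPM with rhTR11B. Here the groups did not overlap, though rhTR11B replicate 1 lay only just under the lowest PBS library, and the log2 fold change was -0.18 (SE 0.07, adjusted p = 0.124). The ratio of EIF4G1 to EIF4G2 was 0.730, 0.663 and 0.760 with PBS and 0.749, 0.731 and 0.937 with rhTR11B, with overlap, and only rhTR11B replicate 3 stood out.

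Among the helicase genes, EIF4A2 had 216, 214 and 207 CPM with PBS and 207, 203 and 225 CPM with rhTR11B, interleaved (-0.01, 95% interval -0.13 to 0.12, adjusted p = 0.966). EIF4A3, the helicase of the exon junction complex, had 117, 128 and 125 CPM with PBS and 114, 107 and 110.1 CPM with rhTR11B, without overlap (-0.15, adjusted p = 0.119). The helicase cofactor EIF4B had 634, 672 and 664 CPM with PBS and 646, 649.8 and 523 CPM with rhTR11B. Only rhTR11B replicate 3 was outside the PBS range, and the log2 fold change of -0.12 (SE 0.08, adjusted p = 0.360) became -0.02 without it. The cofactor EIF4H had 256, 264 and 282 CPM with PBS and 258, 249 and 219 CPM with rhTR11B (-0.14, adjusted p = 0.198), with overlap.

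The cap-binding protein gene EIF4E had 41.3, 42.7 and 40.3 CPM with PBS and 39.3, 37.8 and 35.1 CPM with rhTR11B. The groups did not overlap, and the log2 fold change was -0.15 (SE 0.07, adjusted p = 0.193). EIF4E2 (4EHP), a cap-binding relative that acts in repression, had 68.3, 70.8 and 73.8 CPM with PBS and 70.4, 63.1 and 54.9 CPM with rhTR11B, with overlap (-0.18, adjusted p = 0.167). EIF4EBP1, whose product keeps eIF4E from eIF4G unless mTOR phosphorylates it, had 44.3, 43.4 and 48.4 CPM with PBS and 41.8, 37.9 and 34.9 CPM with rhTR11B. It was below PBS in every rhTR11B library, 15.8% lower in the mean, with a log2 fold change of -0.25 (SE 0.08, adjusted p = 0.0645). The FPKM ratio of EIF4EBP1 to EIF4E averaged 3.98 ± 0.340 with PBS and 3.70 ± 0.143 with rhTR11B, with overlap. EIF4EBP2 had 71.1, 77.1 and 70.9 CPM with PBS and 68.6, 76.2 and 63.8 CPM with rhTR11B (-0.07, adjusted p = 0.566), and EIF4ENIF1, which carries eIF4E into the nucleus, had -0.02 (adjusted p = 0.869). Both overlapped between groups.

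EIF1 and EIF1A scan for the start codon. EIF1 had 369, 367 and 383 CPM with PBS and 369, 348 and 321 CPM with rhTR11B, with overlap (-0.11, SE 0.06, adjusted p = 0.292). EIF1AX (chromosome X, 20124525 to 20141838) had 58.2, 68.2 and 55.2 CPM with PBS and 52.5, 54.0 and 43.1 CPM with rhTR11B. All rhTR11B values were below PBS, by little for replicates 1 and 2, and the mean was 17.6% lower (log2 fold change -0.28, SE 0.09, adjusted p = 0.0707). Without PBS replicate 2 or without rhTR11B replicate 3 it was -0.18. EIF1B had 25.8, 27.5 and 25.5 CPM with PBS and 25.7, 25.5 and 22.0 CPM with rhTR11B (-0.11, adjusted p = 0.432), and EIF1AD had 30.6, 28.8 and 30.2 and then 32.0, 30.9 and 30.0 CPM (0.05, adjusted p = 0.693). Both pairs of groups overlapped.

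The last group holds the eIF5, eIF5A, eIF5B and eIF6 genes. EIF5A (chromosome 17, 7306999 to 7312463), the factor modified with hypusine that eases the joining of prolines, had 979, 1028 and 1057 CPM with PBS and 928, 881 and 802 CPM with rhTR11B. All rhTR11B libraries were lower, and the mean went from 1022 ± 39.3 to 871 ± 63.7 CPM, a value 14.8% lower (log2 fold change -0.23, SE 0.07, adjusted p = 0.0574). EIF5AL1, an expressed copy on chromosome 10, had 27.5, 28.8 and 30.4 CPM with PBS and 25.4, 23.7 and 23.1 CPM with rhTR11B (-0.26, SE 0.07, adjusted p = 0.0557). It is 97.4% identical to EIF5A over 1159 bases, and the ratio of EIF5A to EIF5AL1 stayed between 37.6 and 40.2 in all libraries, so reads may be shared between them and the 2 values may not be independent. EIF5A2, 74.7% identical over 372 bases, had only 6.88 to 10.0 CPM (-0.18, adjusted p = 0.412).

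EIF5, which makes eIF2 hydrolyse its GTP at the start codon, had 205, 211 and 215 CPM with PBS and 231, 227 and 195 CPM with rhTR11B. Both rhTR11B replicates 1 and 2 lay above all PBS libraries and replicate 3 below them, for a log2 fold change of 0.05 (95% interval -0.09 to 0.19, adjusted p = 0.694). EIF5B, the factor of subunit joining, had 210.5, 219.6 and 221 CPM with PBS and 223, 209 and 199 CPM with rhTR11B, with overlap (-0.04, adjusted p = 0.696). EIF6, which keeps large subunits apart until they are mature, had 131, 134 and 140.2 CPM with PBS and 122, 121 and 123 CPM with rhTR11B. Its rhTR11B values were tightly grouped below PBS, with a log2 fold change of -0.15 (SE 0.06, adjusted p = 0.122).

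The median log2 fold changes by complex were -0.11 for eIF1 and eIF1A, -0.20 for eIF2, -0.13 for eIF2B, -0.17 for eIF3, -0.13 for eIF4, -0.16 for the eIF5 and eIF6 genes and -0.15 for the elongation factors, and differences between complexes were not tested. The rhTR11B libraries lay wholly below PBS for 11 of 14 eIF3 genes, 4 of 5 elongation factors, 3 of 5 eIF2B genes, 3 of 6 eIF5 and eIF6 genes, 2 of 4 eIF2 genes, 4 of 12 eIF4 genes and 1 of 4 eIF1 and eIF1A genes. The share was 14.0% of all tested genes and 22.6% of those with at least 50 CPM, and among these complexes the counts for eIF1 and eIF4 lie nearest to it. EIF2A, EIF2D and PABPC1, not in these counts, had overlapping groups, with log2 fold changes of -0.10, -0.12 and -0.13. Gene length had a weak rank correlation with the log2 fold changes, and a part of length in the result was not tested. Across genes, which are not independent replicates and share the same libraries, Spearman's rho between length and log2 fold change was 0.11 over the 53 factors and 0.12 over all 13567 genes. The median was -0.14 for 21 factors shorter than 3000 bases, -0.18 for 20 between 3000 and 5000 bases, and -0.06 for 12 longer ones, beside -0.03, -0.00 and 0.02 over all genes. With offsets for gene length, 6 factors were called lower, where 1.17% of all genes were.

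Genes that act on these factors were read from the same fit. Of 9 genes for eIF2 kinases and the subunits of the phosphatase that opposes them, 0 passed and 6 were below 0, with a median of -0.08. The amino acid sensor EIF2AK4 (GCN2) had -0.17 (adjusted p = 0.102), the endoplasmic reticulum sensor EIF2AK3 (PERK) had 0.20 (adjusted p = 0.160), and the phosphatase catalytic gene PPP1CA had -0.15 (adjusted p = 0.159). Of 19 tested targets of the integrated stress response, which follows phosphorylation of eIF2, 1 passed. Of all tested genes 3.6% did, with 2.92% called higher. ERO1A, an oxidase of protein folding, rose from 130.9 ± 6.31 to 156 ± 7.76 CPM (log2 fold change 0.25, edgeR adjusted p = 0.0323). The pathway's transcription factor ATF4 had -0.06 (adjusted p = 0.625), and the serine synthesis genes PSAT1 and PHGDH had -0.21 each (adjusted p = 0.0764 and 0.0821). In this list 11 of 19 were below 0, near the 50.0% of all genes, and the median was -0.06.

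Of 20 mTORC1 pathway genes 0 passed, 16 were below 0 and the median was -0.06, with RHEB, the GTPase that switches on mTORC1, at -0.23 (adjusted p = 0.0864). LAMTOR2, of its lysosomal anchor, had -0.18 (adjusted p = 0.163) and the S6 kinase gene RPS6KB2 had -0.15 (adjusted p = 0.176). Of 15 partners of poly(A)-binding protein and regulators of the cap complex 0 passed, and 11 were below 0 with a median of -0.06. Here MKNK1, a kinase of eIF4E, had 0.19 (adjusted p = 0.118), the poly(A)-binding factor LARP4 had -0.15 (adjusted p = 0.183), and PABPC3 had only 0.962, 0.520 and 0.394 CPM with PBS and 0.220, 0.402 and 0.309 CPM with rhTR11B (adjusted p = 0.163). Of 17 further genes of elongation, termination and ribosome recycling 0 passed, 13 were below 0, 7 had rhTR11B libraries wholly below PBS (14.0% of all tested genes did), and the median was -0.12. The smallest p-values belonged to DENR (-0.24, adjusted p = 0.0528), ABCE1 (-0.20, adjusted p = 0.0860) and HBS1L (-0.19, adjusted p = 0.101), all 3 of which act in freeing ribosomes from a message.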

How the data were processed

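RNA sequencing was made on 6 libraries of A549 cells (3 with PBS, 3 with rhTR11B, grouped by the treatment label). The authors deposited a table of read counts per gene symbol and a table of FPKM values. Per the submitters' processing notes, fastp, HISAT, HTSeq, R 3.2.0, DESeq2 and build GRCh38 were used. For the role of each tool, the annotation and the strand setting, nothing was given in the sources used here, so reads of a gene and of an antisense neighbour may be mixed. The deposited FPKM equal count over length and library total for 100% of values (relative tolerance 0.001), so the 2 tables hold the same measurements.

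The deposited counts were tested with edgeR 4.0.16 in R 4.3.3: filterByExpr (minimum count 10), TMM scaling, group as the only term, the quasi-likelihood test and Benjamini-Hochberg adjustment over 13567 genes. CPM use TMM-scaled library sizes. The SE is the log2 fold change over the square root of F, and 95% intervals come from the same fit. The common biological coefficient of variation was 0.0656, above counting error for most of the factors. Counting error is of similar size or larger for EIF2S3B, EIF5A2 and EIF3CL, whose lowest counts in a library were 113, 245 and 255. Library pairs within a group differed by 5.35 to 26.3 times sampling noise (chi-square per degree of freedom), so none was counted as a repeat. The test was checked on simulated counts. All 55 genes matched RefSeq (GRCh38.p14), the source of coordinates and start letters. Identity between copies was measured with blastn on the longest coding transcripts.

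Alternatives were other scalings, DESeq2 1.42.0, limma-voom and limma-trend on log2(FPKM + 1) or log2(FPKM + 0.1) (limma 3.58.1), other filters and thresholds, per-library length offsets, a replicate block, and each library left out. The genes, lists and tests were chosen with earlier results of these data known. Any of the 55 genes could be named. Given in full were, per group, the 2 with the smallest p and the 2 most abundant per length, and EIF4EBP1, EIF4E, EIF2S1, EEF1A1, EEF2 and PABPC1. From each list of other genes up to 3 with the smallest p were named, and ATF4 and EEF1A2 were added after their values were seen. The comparison with genes of at least 50 CPM and the start letters were added after the data were seen. No list was given a test of its own.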

Additional observations from a re-analysis of the deposited data

How the results depend on the processing

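The direction of the difference held in every setting tried, with 46 to 50 tested factors below 0, but whether single factors passed depended on the setting, and the cause was not tested. Counts of genes called lower follow, first of the factors and then of their groups. Over all genes, the shares called lower were 1.75% with DESeq2, 2.43% with no low-count filter and 1.17% with length offsets. They were 0.796% with library size alone and 1.86% with a replicate block. At a threshold of 0.1, 556 of all 13567 genes were lower. DESeq2's Wald test called 10: 1 of eIF1 and eIF1A, 1 of eIF2, 4 of eIF3, 1 eIF4E binding protein, 2 of the eIF5 and eIF6 genes and 1 elongation factor (2 of the TOP list). It also called 1 stress response target, 1 further elongation, termination or recycling gene and 3 tRNA synthetase genes. With no low-count filter edgeR called 13: 1, 2 and 6 of eIF1, eIF2 and eIF3, 1 of the eIF4 helicase and scaffold genes, 1 binding protein and 2 of the eIF5 and eIF6 genes (2 of the TOP list), with 1 stress response target, 3 further elongation genes, 1 mTORC1 gene and 3 synthetase genes. Length offsets gave 6: 1 of eIF1, 3 of eIF3 and 2 of the eIF5 and eIF6 genes (1 of the TOP list), with 1 further elongation gene and 2 synthetase genes. Library size alone gave 2, both of eIF3, and 1 synthetase gene. A threshold of 0.1 gave 14: 1, 2, 1 and 7 of eIF1, eIF2, eIF2B and eIF3, 1 binding protein and 2 of the eIF5 and eIF6 genes (2 of the TOP list), with 2 stress response targets, 2 further elongation genes, 1 mTORC1 gene and 3 synthetase genes. DESeq2 size factors, TMM without mitochondrial and ribosomal protein genes, limma-voom, limma-trend on FPKM, a mean of at least 5 CPM and a threshold of 0.01 gave 0 factors. In all, 16 factors passed under at least 1 of the alternatives that kept the threshold at 0.05.

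Deviations of same-numbered libraries from their group means correlated at -0.10, 0.05 and -0.01, and those of differently numbered libraries at -0.10 to 0.11. With 3 libraries per group, these values cannot decide whether a replicate number marks a shared culture or day. With a replicate block, 5 factors passed, EIF1AX, EIF3C, EIF3F, EIF4EBP1 and EIF5AL1 (1 of eIF1, 2 of eIF3, 1 binding protein, 1 of the eIF5 genes and 1 of the TOP list), with 1 gene each of the stress response targets, the further elongation genes, the mTORC1 genes and the synthetases.

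Over all genes, 396 were higher and 92 lower. The counts, higher and lower, were 728 and 348 with DESeq2, 940 and 483 without a filter, 774 and 252 with the replicate block, 205 and 26 at a mean of at least 5 CPM, 1056 and 556 at a threshold of 0.1, and 45 and 5 at 0.01. On FPKM, limma-trend gave 62 and 21 with a pseudocount of 1, 64 and 22 with 0.1, and 0 and 0 with no filter. Length offsets gave 278 and 159.

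With 1 library left out, 9 to 903 genes were higher and 3 to 427 lower, and 0 to 9 factors were called lower. The calls ranged from 0 to 1 for eIF1 and eIF1A, eIF4E and its relatives, the binding proteins, the TOP list, the stress response targets and the mTORC1 genes. They ranged from 0 to 2 for eIF2, eIF3, the eIF5 and eIF6 genes and the further elongation genes, and from 0 to 3 for the synthetases. Medians ran from -0.18 to -0.10 over all factors, from -0.16 to -0.063 for the eIF4 helicase and scaffold genes, from -0.14 to -0.030 for the binding proteins and from -0.22 to -0.093 for the eIF5 and eIF6 genes. They ran from -0.12 to -0.093 for the further elongation genes, from -0.094 to -0.015 for the poly(A) and cap regulators and from -0.067 to -0.017 for mitochondrial factors. Length offsets moved the medians of the helicase and scaffold genes, the further elongation genes, the poly(A) and cap regulators and the mitochondrial factors to -0.15, -0.16, -0.11 and -0.089. The median over all tested genes moved the same way, from 0.00 in the main fit to -0.036 with these offsets. The further elongation genes had -0.092 at a mean of at least 5 CPM and -0.080 on log2(FPKM + 1) with and without a filter.

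Log2 fold changes near 0 changed sign. EIF2S3 had -0.016 with library size alone and with each of the 3 fits to FPKM, -0.0021 with DESeq2, -0.0052 with no filter and -0.035 with length offsets. EIF4A2 had 0.0050 at a mean of at least 5 CPM, and EIF4G3 had -0.025 with length offsets. The median over all tested genes was itself -0.016 with library size alone and -0.036 with length offsets. With 1 library left out the values ran from -0.031 to 0.018 for EIF2S3, from -0.072 to 0.023 for EIF2B4, from -0.050 to 0.022 for EIF4A2, from -0.063 to 0.0077 for EIF4G1, from -0.023 to 0.062 for EIF4G3 and from -0.052 to 0.010 for EIF4ENIF1. The other 47 tested factors kept their sign in every setting that tested them. Depth limits EIF4E3 and EIF4EBP3, which were too low to test.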

Other observations

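Among the 22 genes of the cytosolic aminoacyl-tRNA synthetases and their scaffold proteins, 0 passed edgeR's test. The synthetases charge tRNAs with amino acids for the elongation factors. At an unadjusted p under 0.05, 7 were lower, where 10.3% of all tested genes were, and 1 was higher, where 13.8% were. In 20 the log2 fold change was below 0, against 50.0% of all tested genes. For 14 of the 22 the rhTR11B libraries lay wholly below PBS, against 14.0% of all tested genes, and the median was -0.10. Of all genes with at least 50 CPM, 18.1% were lower at that p, 58.9% were below 0 and 22.6% wholly below. The smallest p-values belonged to YARS1 (-0.22, adjusted p = 0.0519), KARS1 (-0.18, adjusted p = 0.0706) and FARSB (-0.19, adjusted p = 0.0733), the synthetases for tyrosine and lysine and a subunit of that for phenylalanine.

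The 9 factors of mitochondrial translation, encoded in the nucleus, had 0 calls and 0 genes at an unadjusted p under 0.05. Of these, 6 were below 0, with a median of -0.05. TSFM, the exchange factor of the mitochondrial elongation factor Tu, had -0.13 (adjusted p = 0.207), and the release factor genes MTRF1L and MTRF1 had -0.12 (adjusted p = 0.351) and 0.13 (adjusted p = 0.391). The share of counts from mitochondrially encoded genes was higher in each rhTR11B library than in any PBS library.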
